A study of Drosophila melanogaster with 10 samples.

Results

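The voltage-gated and potassium channel genes are the sodium, calcium, potassium and leak channel subunits by which a fly neuron fires and comes to rest. They were chosen by symbol from a list of 35 Drosophila genes, and 34 of them were found among the 17716 genes of the count tables. The remaining one, Ca-beta, was not analysed here. The members fall into 7 sodium channel genes, 4 calcium channel genes, 5 potassium channels of the Shaker family, 4 of the KCNH and KCNQ families, 2 potassium channel auxiliary proteins, 3 calcium- or sodium-activated potassium channels, 5 inward rectifier and two-pore potassium channels, the pacemaker channel Ih and 3 genes of the NALCN sodium leak complex.

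Translating ribosome affinity purification with sequencing (TRAP-seq) pulls down ribosomes that carry a GFP fusion of the ribosomal protein RpL10A, so that the mRNA on them can be counted. PARIS WT flies (3 libraries) carried dTH-GAL4, UAS-GFP::RpL10A and a UAS transgene of human PARIS, the zinc finger protein ZNF746. PARIS C571A flies (3 libraries) carried the same driver and reporter with PARIS in which a cysteine was replaced, a form without transcriptional activity. TRAP control flies (3 libraries) carried dTH-GAL4 and UAS-GFP::RpL10A without PARIS, and all TRAP libraries therefore share the driver and the tagged ribosome. The whole brain library (1 library) came from w1118 flies with neither, and held total mRNA instead of ribosome-bound RNA. dTH-GAL4 uses regulatory sequence of the tyrosine hydroxylase gene to drive expression in dopaminergic (DA) neurons. Each TRAP library was an independent pool of male and female heads in equal numbers, with a larger pool for PARIS WT than for the other groups. The labels give an age of 30 days, whereas the methods state collection 2 days after eclosion. The whole brain library is named brain in the labels and whole head in the methods. Its column of counts is headed Sample_dPARIS_Whole_Brain, whereas the paper calls this sample naïve.

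A neuron fires when voltage-gated sodium channels open and sodium flows in, and it recovers when potassium channels let potassium out. Calcium channels couple the spike to transmitter release and, in pacemaking cells, shape the interval between spikes. Calcium-activated potassium channels such as SK and BK then set the pause after a spike, while leak channels and the Ih current set the voltage at which the next one starts. DA neurons of mammals are known as pacemakers that lean on these currents, and several of the channels were first found in flies through mutants such as Shaker, ether-a-go-go and paralytic.

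The potassium channel members share one short stretch, the selectivity filter, through which potassium passes. It is shown here because it is the part by which the family is recognized and because related genes can compete for the same reads. The filter codons were found by translation in all 17 potassium channel genes searched, once in 15 of them and 2 times in Ork1 and sand, whose proteins carry a pair of pore loops. Printed are 11 windows of 63 bases from 10 genes, read from the Release 6 genome of RefSeq with Ensembl's coding annotation, with the 5 filter codons in capitals. Of the other 7 genes, Elk, sei, KCNQ, SLO2 and sand are named only, and in Shal and eag an intron splits the filter codons.
SK: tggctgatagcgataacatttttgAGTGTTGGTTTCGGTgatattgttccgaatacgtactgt
Sh: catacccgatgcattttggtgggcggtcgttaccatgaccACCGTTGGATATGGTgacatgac
Shab: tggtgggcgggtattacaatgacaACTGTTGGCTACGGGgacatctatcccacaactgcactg
Shaw: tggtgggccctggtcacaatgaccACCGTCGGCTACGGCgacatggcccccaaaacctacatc
Shawl: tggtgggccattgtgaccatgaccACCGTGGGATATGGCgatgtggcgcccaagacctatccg
slo: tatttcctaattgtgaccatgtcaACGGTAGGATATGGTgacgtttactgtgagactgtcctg
Irk1: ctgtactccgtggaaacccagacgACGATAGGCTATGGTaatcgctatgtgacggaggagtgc
Irk2: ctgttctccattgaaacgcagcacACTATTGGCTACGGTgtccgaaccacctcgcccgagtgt
Irk3: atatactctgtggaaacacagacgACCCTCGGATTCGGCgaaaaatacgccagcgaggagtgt
Ork1 first filter: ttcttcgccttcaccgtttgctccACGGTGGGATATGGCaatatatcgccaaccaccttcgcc
Ork1 second filter: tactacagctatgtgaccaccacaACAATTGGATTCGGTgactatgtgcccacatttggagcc

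The windows lay within one exon each, at chrX:5394093-5394155 on the plus strand for SK, chrX:17945219-17945281 on the minus strand for Sh, chr3L:2941318-2941380 on the plus strand for Shab, chr2L:3723016-3723078 on the plus strand for Shaw and chr2L:9380155-9380217 on the minus strand for Shawl. That of slo lay at chr3R:24675699-24675761 on the plus strand, and those of the inward rectifiers at chr3R:23183669-23183731 on the plus strand for Irk1, chr3R:23515041-23515103 on the minus strand for Irk2 and chr2L:18712327-18712389 on the minus strand for Irk3. The windows of Ork1 lay at chrX:10882323-10882385 on the minus strand and chrX:10881921-10881983 on the minus strand. In SK, Irk3 and the second filter of Ork1 the fourth capital codon is a phenylalanine codon, and in the other 8 windows it is a tyrosine codon, each time between glycine codons. The most alike pair of windows with the filter at the same place was Shaw and Shawl, identical at 48 of 63 bases and at 12 of the 15 filter bases. Irk1 matched Irk3 at 41 and Irk2 at 38 of 63 bases. Of 561 pairs of members, 14 shared a run of at least 25 exonic bases, and 1 pair, TEH2 and TEH3, shared one of at least 36. Those genes overlap on chromosome 3L, where 14.4% of the exon bases of TEH3 belong to TEH2 as well, so their counts are uncertain. A larger overlap concerned Irk1, of whose exon bases 61.0% were shared with CG46310. Other members overlapped with neighbors as well. Among them, KCNQ shared 20.6% of its exon bases with an antisense gene, and tipE 19.0% with CG18675 on the same strand.

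The total of estimated counts ranged from 8819116 to 50102982 per TRAP library and was 11619907 in the whole brain library. Ribosomal RNA took between 15.4% and 43.3% of a TRAP library and 3.24% of whole brain, and the mitochondrial genome between 0.301% and 53.8% against 0.954%. Replicate 2 of PARIS WT and replicate 2 of PARIS C571A were the ones with under 1% mitochondrial counts. Levels are given as CPM, the counts of a gene relative to a library total that was scaled by the trimmed mean of M values (TMM) and set to the same size in each library. The scale was set separately over the 9 TRAP libraries and over the 4 libraries of TRAP control and whole brain, so a CPM is comparable only within one of these.

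On the TRAP control against whole brain question, which the design gives as the check of the enrichment, most voltage-gated channel genes stood higher in TRAP control and the leak-type potassium channels did not. Of the 34 members, 22 (64.7%) were over 2-fold higher in all 3 TRAP control replicates, whereas 13.4% of the 11129 genes with a mean of at least 10 counts were. One member, Ork1, was over 2-fold lower in all 3, against 16.9% of all genes. Counted by direction alone, 25 members were above whole brain in all 3 replicates and 5 below, against 27.9% and 39.3% of all genes. The median log2 ratio was 1.82 over the members and −0.36 over all genes. The median of the members varied between the TRAP control replicates with an SD of 0.18. Scaled by library sizes alone, without TMM, 11 members were over 2-fold higher and 4 lower, against 5.69% and 40.8% of all genes, and the medians were 0.69 and −1.46. This change of scale shifts all genes of a library together. With 1 whole brain library there was no test, and the ratios describe these libraries. In bulk RNA, fewer cells of a type and less RNA per cell cannot be told apart, and the pull-down, the genotype and the cell type cannot be told apart either.

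SK (FBgn0029761, chrX:5340236-5405138), the small-conductance calcium-activated potassium channel, stood apart most. It had 434.5, 312.7 and 253.8 CPM in TRAP control replicates 1 to 3, from 6826, 5268 and 2804 counts, and 16.0 CPM in whole brain, from 334 counts. Every TRAP control library lay far above the whole brain library, by 4.34 ± 0.39 on the log2 scale (SD, n = 3). The voltage-gated channel eag (FBgn0000535, chrX:14955477-15009989), the founder of the KCNH family, had 132.0, 90.6 and 86.3 CPM in TRAP control and 5.46 CPM in whole brain. Its 3 TRAP control libraries were again all above, at 4.19 ± 0.34 on the log2 scale (SD, n = 3), and its whole brain value rested on 114 counts. Sh (FBgn0003380, chrX:17924307-18063247), the A-type channel that repolarizes the spike, had 754.0, 372.8 and 575.8 CPM in TRAP control and 32.3 CPM in whole brain. The replicates of Sh differed more than those of SK or eag, and the log2 ratio was 4.07 ± 0.51 (SD, n = 3). The fourth was cac (FBgn0263111, chrX:11931280-11985087), the pore of the presynaptic calcium channel that triggers transmitter release. It had 361.4, 316.2 and 243.9 CPM in TRAP control and 31.4 CPM in whole brain, a log2 ratio of 3.27 ± 0.29 (SD, n = 3).

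By role, all 7 sodium channel genes were over 2-fold higher in every TRAP control replicate. Their mean log2 ratios ran from 1.71 to 2.93 with a median of 2.34, and the list holds para, the sodium channel of the fly's action potential, and its auxiliary protein tipE. All 4 calcium channel genes were over 2-fold higher as well, with a median of 2.52 and a lowest value of 1.69. So were both potassium channel auxiliary proteins, which act on Sh (median 2.24), all 3 calcium- or sodium-activated channels (median 1.82, lowest 1.41) and Ih (3.24 ± 0.10, SD, n = 3). In the Shaker family 3 of 5 members passed 2-fold, and the median was 2.02 with a lowest value of 0.01. In the KCNH and KCNQ families 1 of 4 did, and without that member, eag, the values ran from −0.35 to 0.38. In the NALCN complex 1 of 3 did, with a median of 0.65. With library sizes alone as the scale the medians of the KCNH and KCNQ families and of the NALCN complex turned negative, at −0.95 and −0.48, and the other families described so far stayed positive, between 0.70 and 2.12. The median over all genes was −1.46 at that scale.

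The inward rectifier and two-pore channels, which carry resting potassium conductance, had the lowest median log2 ratio of the families, −1.46, against −0.36 over all genes. None of the 5 was over 2-fold higher, against 13.4% of all genes, and 1 was over 2-fold lower, against 16.9%. For a set of 5 genes, these counts lie near the shares over all genes. Ork1 (FBgn0017561, chrX:10878054-10891250), an open-rectifier leak channel, had 7.26, 11.9 and 11.5 CPM in TRAP control and 44.5 CPM in whole brain. All 3 TRAP control libraries lay below whole brain, with a log2 ratio of −2.15 ± 0.40 (SD, n = 3). The other two-pore gene, sand (FBgn0033257), a leak channel of sleep-promoting neurons, had 0.255, 2.49 and 1.36 CPM in TRAP control, from 4, 42 and 15 counts, and 3.83 CPM in whole brain, from 80 counts. Its log2 ratio of −1.89 ± 1.55 (SD, n = 3) was therefore loosely measured. Irk3 (FBgn0032706) had 2.74, 2.67 and 8.42 CPM in TRAP control and 11.0 CPM in whole brain, a log2 ratio of −1.46 ± 0.93 (SD, n = 3). Irk2 departed from this pattern, with 42.5, 62.6 and 51.6 CPM in TRAP control and 41.0 CPM in whole brain. With library sizes alone its log2 ratio was −0.79, where the median over all genes was −1.46.

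**Figure D1:**
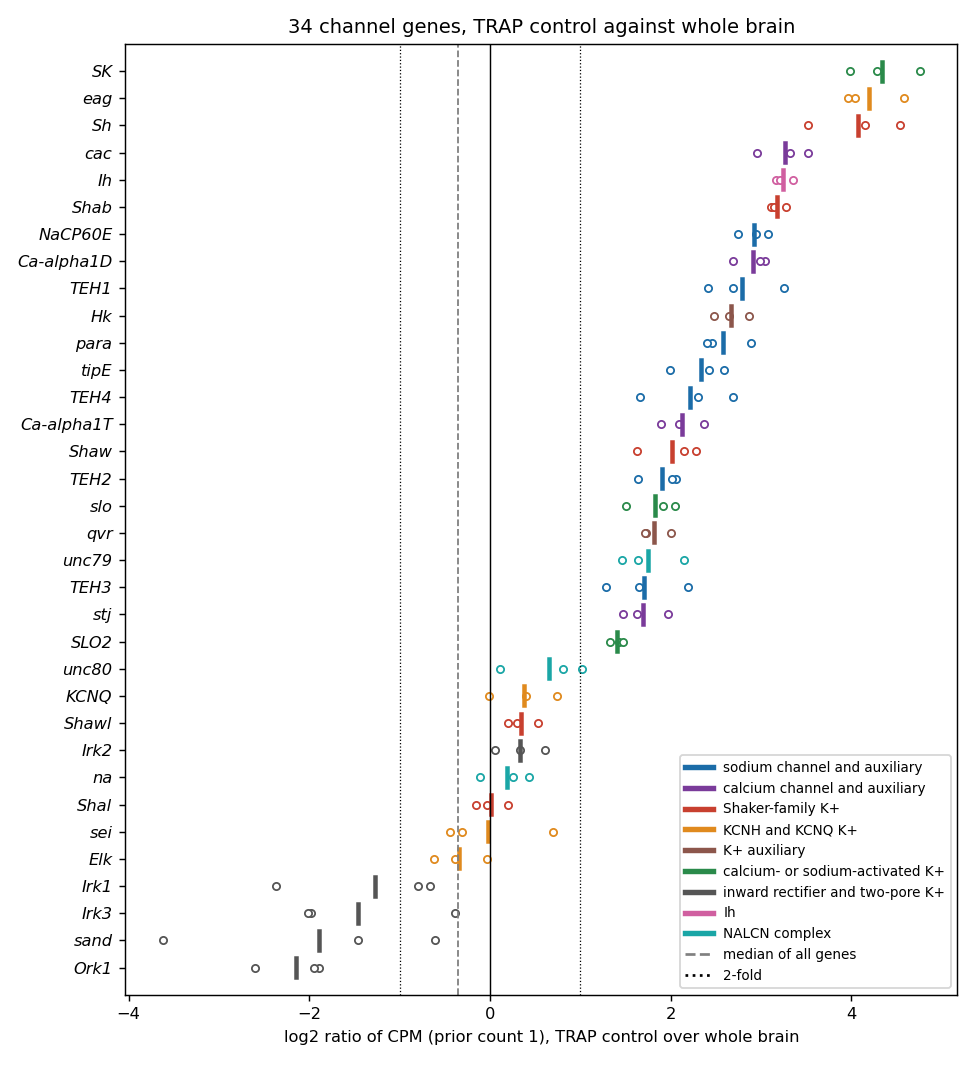
TRAP control over whole brain, as the log2 ratio of CPM, for the 34 members, ordered by their mean, with a circle for each of the 3 TRAP control replicates, a bar at the mean and colors for the kind of channel. Members from SK (4.34) to SLO2 (1.41) lie beyond the dotted 2-fold line in every replicate, and the 4 lowest members, with means from −1.28 to −2.15, are all inward rectifier or two-pore channels.

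Exon length moved with this ratio in all genes. Of the 267 genes with 10 kb or more of exons, 54.7% were over 2-fold higher in TRAP control, and of the 5631 genes under 2 kb, 10.4% were. The members are long genes, with a median of 6281 exon bases against 1967 for all genes with a mean of at least 10 counts. Among the 15 members of 10 kb or more, 14 passed 2-fold, and their median log2 ratio was 2.91 against 1.54 for all genes of that length. In the class from 5 to 10 kb, 3 of 7 members passed, against 28.0% of all genes, and the median of the members, 0.34, was below that of all genes, 0.50. In the class from 2 to 5 kb, 4 of 10 members passed, against 10.7% of all genes, and the medians were 0.35 and −0.38. Families differed in length. The inward rectifier and two-pore members ran from 1.98 kb (sand) to 5.25 kb (Irk1), and the calcium- or sodium-activated channels from 10.04 kb (SLO2) to 10.9 kb (SK). Of the sodium channel genes, all over 2-fold higher, tipE and TEH1 to TEH4 ran from 1.59 kb (TEH3) to 4.54 kb (TEH1). The part that length plays in the ratios of the members was not tested.

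**Figure D2:**
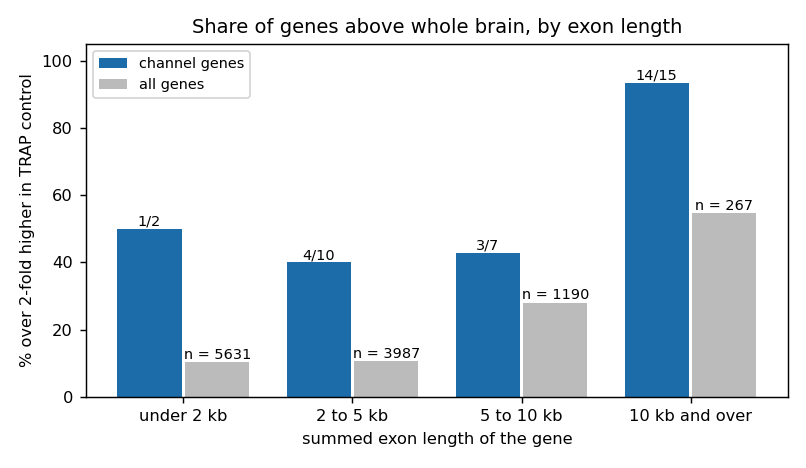
Percentage of genes over 2-fold higher in all 3 TRAP control replicates than in whole brain, by summed exon length, for the channel genes (blue, with the number of members) and all genes with a mean of at least 10 counts (gray, with the number of genes). In all genes the share is 54.7% at 10 kb and over and 10.4% under 2 kb, and 14 of the 15 longest members pass.

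Markers of other cells differed between these libraries as well. The 10 markers of neurons in general summed to 3805 CPM in TRAP control (3181 to 4242) and 1184 CPM in whole brain, with 6 of 10 over 2-fold higher. The 6 DA neuron markers summed to 659 CPM in TRAP control (547 to 764) and 327 CPM in whole brain, with 2 over 2-fold higher. Those of neurons other than DA neurons summed to 589 CPM (499 to 646) and 391 CPM, with 2 of 9 over 2-fold higher and 1 lower. Glial markers summed to 974 CPM in TRAP control (942 to 999) and 1458 CPM in whole brain, with 5 of 9 over 2-fold lower. Muscle markers summed to 1496 CPM (1411 to 1591) and 3316 CPM, with 7 of 12 lower. Photoreceptor markers were abundant in TRAP control, at 17576 CPM (16985 to 18452) against 20894 CPM, and testis markers summed to 864 CPM (820 to 905) against 197 CPM. Fat body markers were abundant as well, at 16185 CPM (12060 to 19347) against 28314 CPM, with 3 of 8 over 2-fold lower. No marker on the lists other than the testis gene can was at 0 in all TRAP libraries. Their part in the ratios of the members was not tested. A further list held other channels, ion exchangers and genes that act on channels, and no transmitter-gated channels. Of its 28 genes measured, 7 were over 2-fold higher and 2 lower, with a median log2 ratio of −0.04.

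Levels of different genes were compared per kilobase of exon. Within TRAP control, Ih (FBgn0263397) was at 41.2 ± 2.63 CPM per kb, TEH2 (FBgn0035505), a homologue of tipE, at 39.8 ± 6.02 and qvr (FBgn0260499), the sleepless protein that acts on Sh, at 37.4 ± 4.36 (SD, n = 3 each). The replicates of these 3 genes overlapped, so their order is not settled. At the other end, Elk was at 1.60 ± 0.34, Irk1 at 1.38 ± 0.71 and sand at 0.567 ± 0.464 CPM per kb (SD, n = 3 each). The replicates of Irk1 overlapped those of both others, while every library of Elk was above every library of sand. The order was a different one in whole brain, on its own scale. SK ranked 5th per kb in TRAP control and 30th in whole brain, and eag 21st and 34th. Ork1 ranked 30th in TRAP control and 4th in whole brain, Irk3 31st and 11th, and Irk2, the highest of all members in whole brain, 11th and 1st.

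The comparison of PARIS WT with TRAP control sets the active form of PARIS beside no PARIS in the mRNA pulled down from heads. Genotype and the size of the head pool cannot be told apart in it. None of the 34 members passed an adjusted p of 0.05 in edgeR's quasi-likelihood test, whereas 0.712% of the 9697 genes tested did, a share that was between 0.126% and 0.417% when any one of the 6 libraries was left out. None passed in DESeq2 either, against 6.92% of all genes. At an unadjusted p of 0.05, edgeR called 0 members and 11.6% of all genes, and DESeq2 called 2 members (5.88%) and 12.2% of all genes. The median log2 fold change was 0.0047 over the members and −0.023 over all genes. Of the members, 30 moved by less than 0.5 on the log2 scale, against 60.3% of all genes, and 27 had a 95% interval within 2-fold in either direction, against 30.4% of all genes. The median standard error was 0.20 on the log2 scale for the members and 0.47 for all genes.

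The smallest p belonged to Shawl (FBgn0085395, chr2L:9370309-9415156), a relative of the potassium channel Shaw. It had 20.7, 20.4 and 16.5 CPM in PARIS WT and 11.9, 15.2 and 12.9 CPM in TRAP control. The PARIS WT libraries were all above those of TRAP control, but the log2 fold change of 0.52 ± 0.22 (SE) had an adjusted p of 0.439 (edgeR, n = 3 each). An antisense gene covers 14.2% of its exon bases, and the library kit does not mark strand. NaCP60E (FBgn0085434), a sodium channel homologue that lets calcium pass, had 234, 170 and 180 CPM in PARIS WT and 277, 255 and 223 CPM in TRAP control. The groups overlapped in replicate 1 of PARIS WT, and the log2 fold change was −0.37 ± 0.16 (SE, adjusted p = 0.465, edgeR). The sodium leak channel na, known as narrow abdomen and needed for daily rhythms of clock neurons, had 21.7, 21.0 and 19.7 CPM in PARIS WT and 22.7, 33.5 and 29.8 CPM in TRAP control. The difference was −0.47 ± 0.20 on the log2 scale (SE, adjusted p = 0.465, edgeR). Shal, the channel of the somatic A-type current, had 33.4, 29.3 and 26.6 CPM in PARIS WT and 25.8, 20.3 and 22.1 CPM in TRAP control. Its difference was 0.39 ± 0.18 (SE, adjusted p = 0.538, edgeR).

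Members whose libraries did not overlap between PARIS WT and TRAP control numbered 3 higher (Shawl, Shal and SLO2, the last named after its values were seen) and 1 lower (na), against 9.71% and 12.3% of all genes. The summed level of the 34 members was 4058 ± 247 CPM in PARIS WT and 4132 ± 441 CPM in TRAP control (SD, n = 3 each). Testis markers summed to 307 CPM (284 to 350) in PARIS WT and 707 CPM (674 to 741) in TRAP control, and 9 of the 20 tested passed as lower. Glial markers summed to 959 CPM (904 to 1042) in PARIS WT and 797 CPM (767 to 822) in TRAP control, and markers of neurons other than DA neurons to 617 CPM (584 to 636) and 482 CPM (410 to 529), in both cases without overlap. Markers of neurons in general overlapped, at 3190 CPM (2773 to 3712) and 3112 CPM (2615 to 3474). So did DA neuron markers, at 525 CPM (470 to 607) and 539 CPM (448 to 622). The part of these shifts in the values of the members was not tested. Of 27 genes of the further list of channels and related genes, tested in each of the 3 comparisons of the TRAP groups, none passed in any of them.

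**Figure D3:**
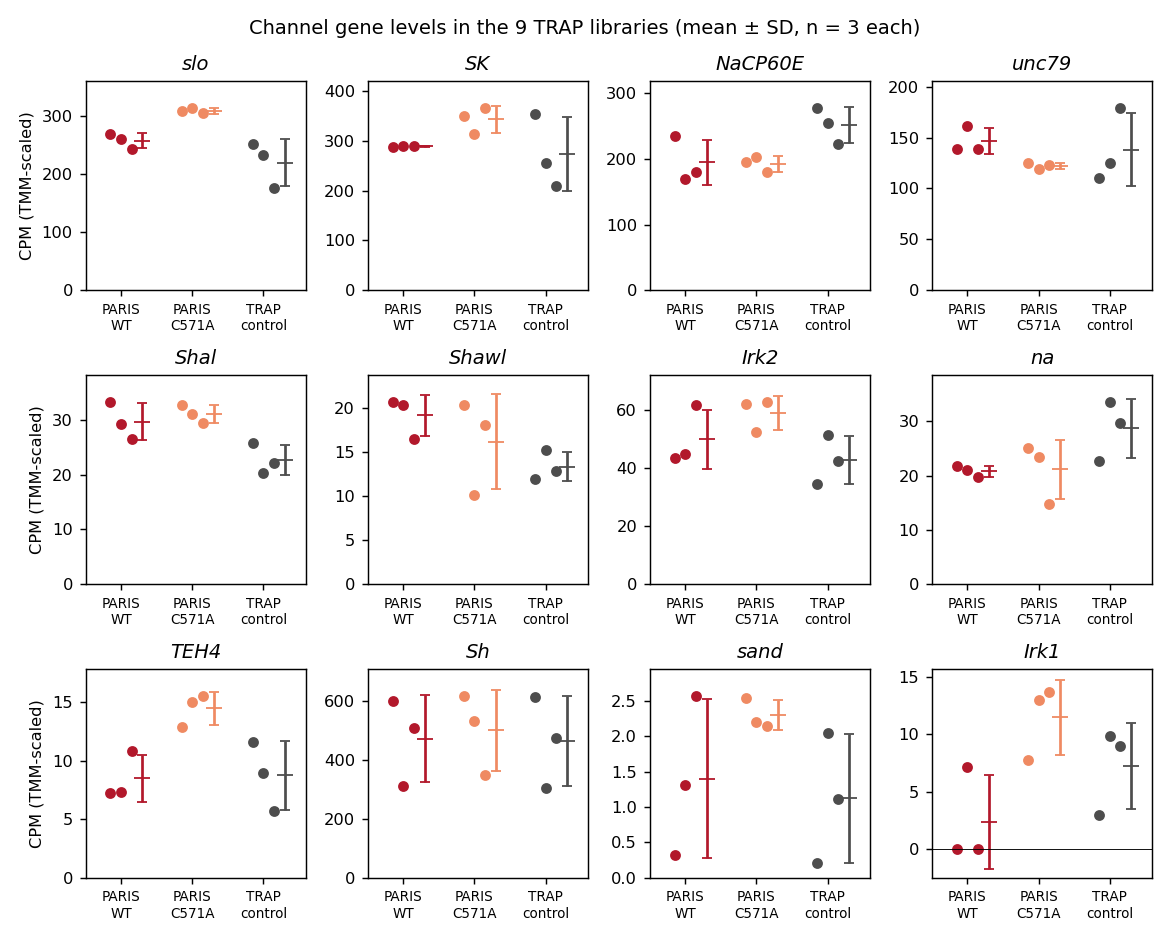
CPM of 12 members in each of the 9 TRAP libraries, with replicates 1 to 3 from left to right in each group and the mean ± SD beside them. PARIS C571A lies above both other groups for slo, the 3 groups overlap for Sh, and Irk1 is at 0 in replicates 1 and 3 of PARIS WT.

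PARIS C571A against TRAP control sets the inactive form of PARIS beside no PARIS under the same driver. The inactive protein and the presence of a further UAS transgene cannot be told apart in it. Here again none of the members passed in edgeR, against 0.17% of the 9986 genes tested. DESeq2 called 1 member, NaCP60E, or 2.94%, against 3.97% of all genes. At an unadjusted p of 0.05, edgeR had 4 members (11.8%) against 9.83% of all genes, and DESeq2 had 5 (14.7%) against 10.6%. The median log2 fold change was 0.049 over the members and 0.0061 over all genes. Of the members, 28 moved by less than 0.5 and 24 had an interval within 2-fold, against 57.5% and 26.3% of all genes.

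The smallest p was that of slo (FBgn0003429, chr3R:24662491-24711595), the BK channel gated by calcium and voltage. It had 309, 314 and 305 CPM in PARIS C571A and 252, 233 and 176 CPM in TRAP control. All PARIS C571A libraries were higher and close together, and the log2 fold change was 0.49 ± 0.15 (SE, 95% interval 0.12 to 0.86, adjusted p = 0.370, edgeR). NaCP60E had 195, 204 and 180 CPM in PARIS C571A and 277, 255 and 223 CPM in TRAP control, without overlap. Its log2 fold change was −0.39 ± 0.13 (SE) with an adjusted p of 0.384 in edgeR, and −0.40 with an adjusted p of 0.0486 in DESeq2. Shal had 32.8, 31.2 and 29.5 CPM in PARIS C571A, all above the 3 libraries of TRAP control given earlier, at a log2 fold change of 0.45 ± 0.18 (SE, adjusted p = 0.481, edgeR). Irk2, an inward rectifier, had 62.1, 52.2 and 62.6 CPM in PARIS C571A and 34.6, 51.2 and 42.4 CPM in TRAP control, at 0.47 ± 0.19 (SE, adjusted p = 0.491, edgeR). These groups lay close at their nearest libraries, replicate 2 of each.

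Members without overlap numbered 6 higher and 1 lower, against 9.94% and 10.6% of all genes. The summed level of the members was 4364 ± 124 CPM in PARIS C571A and 4132 ± 441 CPM in TRAP control (SD, n = 3 each). Markers of neurons other than DA neurons summed to 699 CPM (673 to 727) in PARIS C571A and 482 CPM (410 to 529) in TRAP control, and glial markers to 1114 CPM (1045 to 1169) and 797 CPM (767 to 822). Markers of neurons in general overlapped, at 3465 CPM (3353 to 3633) and 3112 CPM (2615 to 3474). So did DA neuron markers, at 550 CPM (503 to 628) and 539 CPM (448 to 622). Photoreceptor markers did not, at 15733 CPM (15648 to 15782) and 14383 CPM (13822 to 15111). Testis markers summed to 486 CPM (476 to 492) and 707 CPM (674 to 741), with 2 of 21 called lower. Whether these shifts take part in the values of the members was not tested. The PARIS WT and PARIS C571A comparisons share the TRAP control libraries, so that Shal and NaCP60E, which leaned the same way in both, are not independent observations.

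PARIS WT against PARIS C571A sets the active form beside the inactive one. The head pools of PARIS WT were larger, so the form of PARIS and the size of the pool cannot be told apart in it. None of the 34 members passed in edgeR, against 0.0213% of the 9403 genes tested, and none passed in DESeq2, against 3.08%. At an unadjusted p of 0.05 edgeR had 3 members, or 8.82%, against 8.3% of all genes, and DESeq2 had 6, or 17.6%, against 10.6%. The median log2 fold change was −0.060 over the members and −0.019 over all genes, and 28 members had a 95% interval within 2-fold, against 36.4% of all genes.

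The smallest p was that of unc79 (FBgn0038693, chr3R:19230764-19246130), which the NALCN channel needs to work. It had 139, 162 and 139 CPM in PARIS WT and 125, 119 and 123 CPM in PARIS C571A. The groups did not overlap, at a log2 fold change of 0.30 ± 0.11 (SE, adjusted p = 0.518, edgeR). For slo the levels were 269, 261 and 244 CPM in PARIS WT, below the 305 to 314 CPM of PARIS C571A, at −0.22 ± 0.08 (SE, adjusted p = 0.540, edgeR). TEH4 (FBgn0035504), another homologue of tipE, had 7.27, 7.33 and 10.8 CPM in PARIS WT and 12.9, 15.02 and 15.5 CPM in PARIS C571A. This was the largest difference of the 4, at −0.73 ± 0.27 (SE, adjusted p = 0.541, edgeR), and also the one with the fewest counts. SK had 288, 289 and 290 CPM in PARIS WT, 3 nearly equal values, and 350, 313 and 365 CPM in PARIS C571A, at −0.21 ± 0.09 (SE, adjusted p = 0.606, edgeR). The separately deposited table of these groups holds 5216 counts instead of 6538 for SK in replicate 2 of PARIS C571A. In that table, scaled on its own, SK had 288, 293 and 288 CPM in PARIS WT and 342, 244 and 355 CPM in PARIS C571A, so that the groups overlapped, at −0.12 ± 0.15 (SE, adjusted p = 0.961, edgeR).

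Without overlap, 9 members (26.5%) were lower in PARIS WT and 1 was higher, against 10.1% and 7.07% of all genes. The 9 were slo, TEH4, SK, TEH1, cac, TEH2, qvr, Ih and Irk1, and for 8 of them, all but Irk1, the log2 fold change lay between −0.73 and −0.10. TEH1 was named after its values were seen. Scaled over the 6 PARIS libraries only, a check added after seeing the data, 8 members were lower without overlap, all of these but Ih, against 8.78% of all genes, and 7 were in the separate table, all but Ih and SK, against 9.03%. Irk1 is included in each of these counts. Its separation did not hold once CG46310, which overlaps its exons, was added. The sum of both genes ran from 12.0 to 17.0 CPM in PARIS WT and from 13.01 to 17.7 CPM in PARIS C571A. The calcium- and sodium-activated channels together summed to 611 ± 10.3 CPM in PARIS WT and 707 ± 34.7 CPM in PARIS C571A, groups that overlapped in the separate table. The NALCN complex summed to 210.5 ± 5.92 CPM and 182 ± 6.96 CPM (SD, n = 3 each). Most of that sum was unc79, at 147 and 122 CPM, and the groups overlapped for na and unc80. The inward rectifier and two-pore channels, Irk1 included, summed to 70.4 ± 15.7 CPM and 86.3 ± 4.89 CPM, without overlap (SD, n = 3 each). The sums of the sodium, calcium, Shaker-family, KCNH and KCNQ and potassium auxiliary genes overlapped between the groups. Several marker lists were lower in PARIS WT by the same kind of separation. Testis markers summed to 307 CPM (284 to 350) in PARIS WT and 486 CPM (476 to 492) in PARIS C571A. Photoreceptor markers summed to 13365 CPM (12969 to 14132) in PARIS WT and 15733 CPM (15648 to 15782) in PARIS C571A, glial markers to 959 CPM (904 to 1042) and 1114 CPM (1045 to 1169), and markers of neurons other than DA neurons to 617 CPM (584 to 636) and 699 CPM (673 to 727). Markers of neurons in general overlapped, at 3190 CPM (2773 to 3712) and 3465 CPM (3353 to 3633). So did DA neuron markers, at 525 CPM (470 to 607) and 550 CPM (503 to 628). No gene of these lists passed, and their part in the values of the 9 members was not tested.

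**Figure D4:**
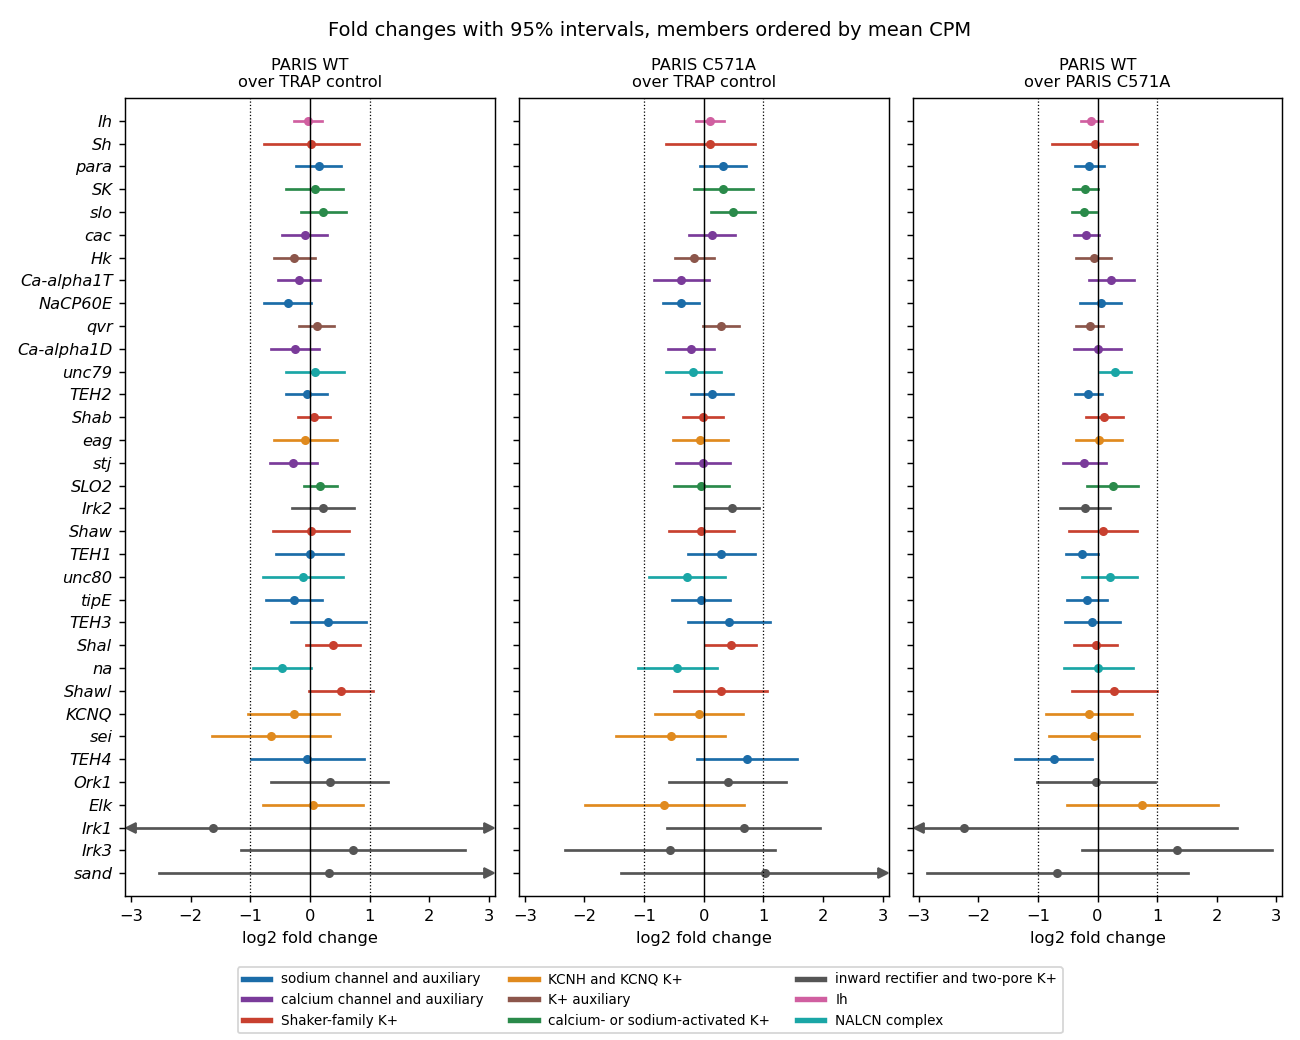
Log2 fold change and 95% interval of each member in the 3 comparisons of the TRAP groups, members ordered by mean CPM from top to bottom, with dotted lines at 2-fold, arrowheads where an interval runs beyond the axis and colors for the kind of channel. The intervals of 27, 24 and 28 of the 34 members stay within 2-fold in the panels from left to right, and the widest of each panel belongs to Irk1 or sand near the bottom.

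The members differed in how tightly replicates agreed. The mean SD within groups was 0.21 on the log2 scale in the median over the members and 0.40 over all genes tested in PARIS WT against TRAP control, and it was under 0.5 for 32 of the 34. Ih was steadiest at 0.07, and the highest of its 9 libraries was 1.17 times the lowest. Sh, although well counted, was among the looser ones, at 0.48. It had 599, 310 and 507 CPM in PARIS WT, 617, 533 and 349 CPM in PARIS C571A, and 614, 305 and 473 CPM in TRAP control. The lowest library of each group, between 305 and 349 CPM, stood well below its highest, between 599 and 617 CPM, and the 95% interval of PARIS WT over TRAP control ran from −0.78 to 0.82.

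Irk1 (FBgn0265042, chr3R:23168317-23185642), an inward rectifier, was the one member at 0 in some libraries of a TRAP group. It had 0, 92 and 0 counts in PARIS WT, 195, 272 and 515 in PARIS C571A, and 57, 202 and 120 in TRAP control. CG46310, on the same strand and overlapping 61.0% of the exon bases of Irk1, had 316, 64 and 269 counts in PARIS WT, 250, 0 and 0 in PARIS C571A, and 374, 111 and 47 in TRAP control. The libraries with no counts for one gene thus held counts for the other. The sum of both genes was 17.0, 12.0 and 13.1 CPM in PARIS WT, 17.7, 13.01 and 13.7 CPM in PARIS C571A and 22.3, 15.2 and 12.4 CPM in TRAP control, and its ranges overlapped in all groups. Alone, Irk1 had log2 fold changes of −1.62 ± 2.04 for PARIS WT against TRAP control, 0.67 ± 0.53 for PARIS C571A against TRAP control and −2.25 ± 1.90 for PARIS WT against PARIS C571A (SE). Summed with CG46310, a treatment chosen after seeing the counts, these were −0.25 ± 0.30, −0.17 ± 0.31 and −0.04 ± 0.24. The same sum moved the TRAP control over whole brain ratio to 0.06 ± 0.44 on the log2 scale, against −1.28 ± 0.95 for Irk1 alone (SD, n = 3), where whole brain had 396 counts of Irk1 and 0 of CG46310. The place of Irk1 among the low members therefore held only without the overlapping gene.

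**Figure D5:**
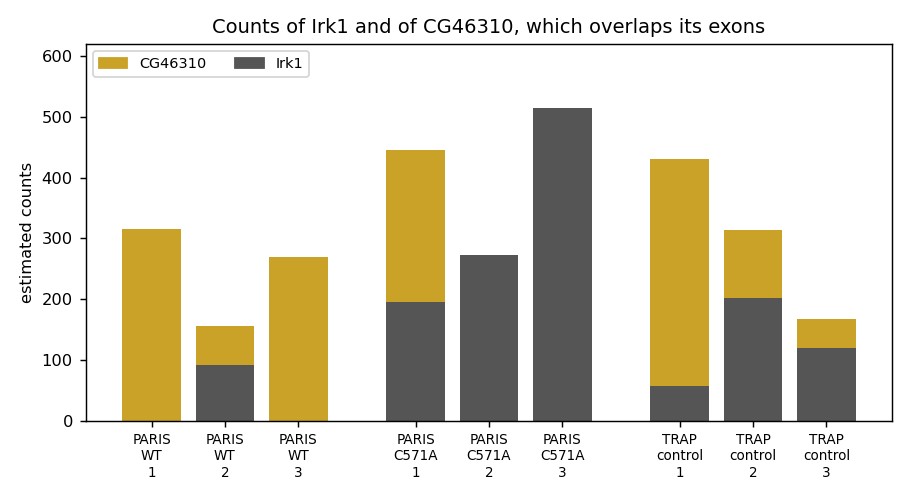
Estimated counts of Irk1 (dark gray) and of CG46310 (yellow), stacked, in the 9 TRAP libraries. Irk1 is at 0 in replicates 1 and 3 of PARIS WT and CG46310 is at 0 in replicates 2 and 3 of PARIS C571A, while every library holds between 156 and 515 counts of the sum.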

How the data were processed

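TRAP-seq libraries of TRAP control, PARIS WT and PARIS C571A (3 each) and 1 whole brain library were grouped by their labels. The authors aligned reads with HISAT2 2.1.0 to BDGP6.28 and quantified transcripts with StringTie 2.0 and its default correction of multi-mapped reads, and the deposited tables hold estimated counts as whole numbers, made with StringTie's conversion script and not normalized. Entries that name no gene (87, at most 0.0209% of a library) were left out. Symbols, positions and exon lengths came from Ensembl's BDGP6.54 annotation, in which 97 of 17716 genes were not found, and TEH1 to TEH4 were matched without regard to case. Members and gene lists were chosen with earlier results of these data known.

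Each comparison used the libraries of its 2 groups in the table of the 3 TRAP groups. Genes were kept by filterByExpr (minimum count 10, minimum total 15), given TMM factors and tested in edgeR 4.0.16 (R 4.3.3) by the quasi-likelihood F-test, two-sided, with Benjamini-Hochberg adjustment over all genes tested and 0.05 as the threshold. The standard error is the log2 fold change over the square root of F. TRAP control was set against whole brain, a single library, as a log2 ratio of CPM with a prior count of 1, for each TRAP control replicate, with 2-fold in all 3 replicates as the limit. In total counts the TRAP libraries ranged from 8819116 to 50102982, and precision was taken from the spread between libraries, described as 3 independent biological samples. In a simulation where 200 genes carried a log2 fold change of 2 at the dispersions estimated for each gene, 12.5% were recovered for PARIS WT against TRAP control, 0% for PARIS C571A against TRAP control and 25.0% for PARIS WT against PARIS C571A, with 13.8%, 0% and 9.09% false calls, and at the median dispersion 24.5%, 16.0% and 61.0% with 2.0%, 3.03% and 4.69%. The 200 genes were drawn from all genes tested. These shares do not describe the members, whose median standard error was smaller.

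Named were members past the threshold, the 4 members with the smallest p per comparison, the 4 highest and 4 lowest against whole brain, the 3 highest and 3 lowest per kb in TRAP control, and members at 0 in some libraries of a TRAP group. Alternatives were median-of-ratios size factors, leaving out rRNA, small RNA and mitochondrial genes, a minimum mean of 50 counts or no filter, a robust fit, DESeq2 1.42.0, all 3 groups fitted together, the replicate number as a block, the separate table of both PARIS groups, library sizes alone or a prior count of 5 for whole brain, and each replicate left out. Irk1 summed with CG46310, the ratios by exon length and CPM scaled over the PARIS libraries alone were added after seeing the data. Tables were handled with pandas 2.3.3 and drawn with matplotlib 3.10.9. Authors' fold changes, FPKM values and the human ChIP-seq data were not used here.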

Additional observations from a re-analysis of the deposited data

How the results depend on the processing

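No member passed an adjusted p of 0.05 in any of the 3 TRAP comparisons under any setting, with 1 exception. In PARIS C571A against TRAP control, DESeq2 called 1 member, NaCP60E (−0.40, adjusted p = 0.0486). Its count over all genes there was 135 higher and 304 lower, against 2 and 15 in edgeR. It was 168 and 573 in PARIS WT against TRAP control, against 10 and 59, and 144 and 179 in PARIS WT against PARIS C571A, against 2 and 0, and the cause was not tested. Leaving out one replicate moved the median log2 fold change of the members between −0.047 and 0.036 for PARIS WT against TRAP control, between 0.047 and 0.165 for PARIS C571A against TRAP control, the highest without TRAP control replicate 1, and between −0.115 and 0.0065 for PARIS WT against PARIS C571A, the highest without PARIS C571A replicate 2. Over all genes, leaving out one library gave between 13 and 44 calls instead of 69 for PARIS WT against TRAP control, the fewest without TRAP control replicate 2. It gave between 3 and 18 instead of 17 for PARIS C571A against TRAP control, with 3 or 4 without any of TRAP control replicates 2 and 3 and PARIS C571A replicates 1 and 3, and 11 without PARIS C571A replicate 2. It gave between 2 and 17 instead of 2 for PARIS WT against PARIS C571A, the most without PARIS WT replicate 1. With a mean of at least 50 counts, which leaves fewer genes, the median for PARIS C571A against TRAP control was −0.036. Summing Irk1 with CG46310, added after seeing the data, gave −0.17 for Irk1 in that comparison, where it alone was above 0. No pairing by replicate number is stated. Deviations from the group means correlated between −0.038 and 0.051 for equal numbers and between −0.037 and 0.035 for different ones. Replicates 2 of PARIS WT and PARIS C571A were nevertheless alike in their low mitochondrial share, at 0.301% and 0.375%. Whether libraries of equal number were processed together was not tested. A replicate block gave 0 members in each comparison and 2, 0 and 0 genes in all. Against whole brain, library sizes alone, which count rRNA and mitochondrial RNA in the scale, gave 11 members over 2-fold higher, 4 lower and a median log2 ratio of 0.69, beside a median over all genes of −1.46. At that scale 5.69% of all genes were higher and 40.8% lower. Leaving out a TRAP control replicate left 22 members higher, and gave between 1 and 2 lower members, 2 without replicate 2 or replicate 3. The shares over all genes rose, from 13.4% to between 16.2% and 17.6% higher and from 16.9% to between 21.5% and 22.0% lower. Depth limits sand, with 4 to 81 counts in the TRAP libraries, and Irk3, with 43 to 139.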
